A study of Drosophila melanogaster with 15 samples.

Results

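Transcripts of the somatic cyst lineage of the Drosophila melanogaster testis were compared between flies that overexpressed the ligand Unpaired (Upd) and control flies (WT). The comparison took the 3 Upd and the 3 WT libraries, 6 of the 15 libraries in the series, and covered every gene of the count table. Upd males were w/Y, had tj-Gal4 and UAS-GFPnls over UAS-Upd, and carried a UAS-GFP insertion over a wild-type chromosome. WT males were w/Y, had tj-Gal4 and UAS-GFPnls over UAS-GFPnls, and carried no UAS-GFP insertion (+/+). The w allele, tj-Gal4 and nuclear GFP were therefore common to both groups, while the additional UAS-GFP was present in Upd and a second copy of UAS-GFPnls in WT. All flies of both groups were 10 days past eclosion. GFP-positive cells were sorted from pools of 50 to 100 flies (100 to 200 testes) per sample, and polyadenylated RNA was sequenced. The driver is active wherever traffic jam is transcribed, which includes cyst stem cells and early cyst cells, so a sorted cell was defined by its GFP and not by its stage. Whether replicates are independent crosses is not stated. The p-values cover only the spread between libraries within groups, estimated over all 15 libraries of the series, and this spread may be technical.

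Upd is secreted by the hub, the niche at the testis tip, and signals through the receptor Domeless and the JAK/STAT pathway in neighbouring stem cells. In cyst stem cells this pathway maintains stem cell identity, and cyst cells that leave the niche stop dividing, enclose the germ cells and exchange metabolites and signals with them. Mature cyst cells act as a supporting epithelium with a high load of secretion, endocytosis and transport. Germ cells that contaminate a sort can be told by their own markers, with early germ cells using genes such as vas and nos, and spermatids using protamine-like genes and testis copies of metabolic enzymes.

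The gene table held 17408 genes, of which 10056 had enough counts to be tested. Totals over genes were 2102093, 2238014 and 2443475 counts in Upd 1 to 3 and 1949497, 2331362 and 1966444 counts in WT 1 to 3. Levels are given in CPM, counts per 1000000 gene counts after scaling by TMM, in the order of libraries 1 to 3 of each group. A log2 change is that of Upd over WT fitted by edgeR, and a value with ± in parentheses is a log2 change with its standard error (SE). CPM is not divided by gene length, so levels are compared here between libraries and not between genes. The transgene's own gene, upd1, stood at 177, 208 and 202 CPM in Upd, against 9.75, 9.15 and 1.42 CPM in WT, a change of 4.84 ± 0.96 log2 units (± SE, edgeR adjusted p = 0.000453). The groups were far apart, and reads of the transgene are included in the Upd values. Socs36E, a feedback inhibitor of the pathway, had 174, 149 and 149 CPM in Upd, against 20.02, 43 and 14.7 CPM in WT, and rose by 2.59 ± 0.64 log2 units (± SE, edgeR adjusted p = 0.00284). The receptor gene dome had 181, 172 and 201 CPM in Upd, against 389.6, 216 and 378 CPM in WT, a difference that did not pass the test (log2 change -0.83, edgeR adjusted p = 0.398).

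Markers within the sorted lineage differed between groups. The driver's own gene tj, a cyst lineage factor, had 219, 246 and 199.6 CPM in Upd, against 16.9, 1.59 and 0.475 CPM in WT, and rose by 5.14 ± 1.08 log2 units (± SE, edgeR adjusted p = 0.000765). WT 1 was the highest WT library for tj, and the log2 change without it was 7.57. The cyst stem cell factor zfh1 had 544, 372 and 453 CPM in Upd, against 23.6, 13.1 and 10.9 CPM in WT (4.84 ± 0.90, edgeR adjusted p = 0.000231). The differentiation marker eya, the remaining cyst marker, had 62.7, 11.6 and 34 CPM in Upd, against 342, 242 and 216 CPM in WT (-2.88 ± 0.57, edgeR adjusted p = 0.000429). The groups did not overlap for any of these 3 genes. Of 5 hub markers upd1 and CadN rose and Fas3 and hh fell (40.0% each, against 9.22% and 25.3% of all genes tested). The call of Fas3 was lost in 2 of the leave-one-out fits.

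Markers of other cells moved with the groups as well. The summed level of 12 early germline markers was 1996, 1892 and 1856 CPM in Upd 1 to 3, against 213, 304 and 275 CPM in WT 1 to 3, and 9 of the 12 were higher in Upd. The sum over 18 spermatocyte and spermatid markers was 246, 212 and 182 CPM in Upd, against 4140, 7412 and 5154 CPM in WT. Of the 17 tested, 10 were lower in Upd (58.8%, against 25.3% of all genes tested). WT 2 had the highest sum of the 6 libraries for these late germline markers. Their part in the results below was not tested. Hemocyte markers summed to 159, 139 and 140.01 CPM in Upd and 451, 246 and 321 CPM in WT, mostly through crq, whereas the defining gene He had no count in either group and Hml had 7.19, 2.46 and 0.624 CPM in Upd, against 2.57, 1.99 and 10.9 CPM in WT. Muscle markers summed to 360.2 to 420 CPM in Upd and 403 to 616 CPM in WT, and neuron markers to 163 to 292 CPM in Upd and 93.4 to 169 CPM in WT. Fat body markers summed to 35.2 to 52.3 CPM in Upd and 45.2 to 66.05 CPM in WT, and accessory gland markers to 1.56 to 3.59 CPM in Upd and 3.59 to 18.04 CPM in WT. Pigment cell markers summed to 269 to 295 CPM in Upd and 118 to 148 CPM in WT, with w called higher and ltd lower. The call of ltd did not hold in every leave-one-out fit. In these bulk samples, fewer cells of a type and less RNA per cell cannot be told apart.

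At an adjusted p under 0.05 the calls covered 34.5% of all genes tested, with 927 genes (9.22%) higher and 2546 genes (25.3%) lower in Upd. Groups did not overlap for 67.5% of all genes. They did not overlap for all 927 genes that rose and for 2486 of the 2546 that fell. A lack of overlap stated below for a called gene therefore adds little to its call. The falls were also the wider changes, with a median size of 5.32 on the log2 scale for the genes that fell and 2.85 for those that rose. Among the genes that fell, 362 had no count in the 3 Upd libraries together, while 50 of those that rose had none in the WT libraries. Fits that left out 1 Upd or WT library at a time called 442 to 672 genes higher and 2001 to 2424 lower. The 442 belonged to the fit without WT 2 and the 515 to the fit without WT 3, and 544, 576 and 590 were found without Upd 1, Upd 2 and Upd 3. In every such fit and in the fit with all libraries, 350 genes (3.48% of all tested) were higher and 1874 (18.6%) lower. These are described below as holding without any 1 library. Other fits called more genes higher: 1585 higher and 2775 lower with DESeq2, 1642 and 2685 with limma-voom, 1532 and 3123 without Chinmo 3, and 2310 and 3040 with only the Upd and WT libraries. The rises were thus fewer than the falls in each of these fits, by a margin that depended on the fit.

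**Figure D1:**
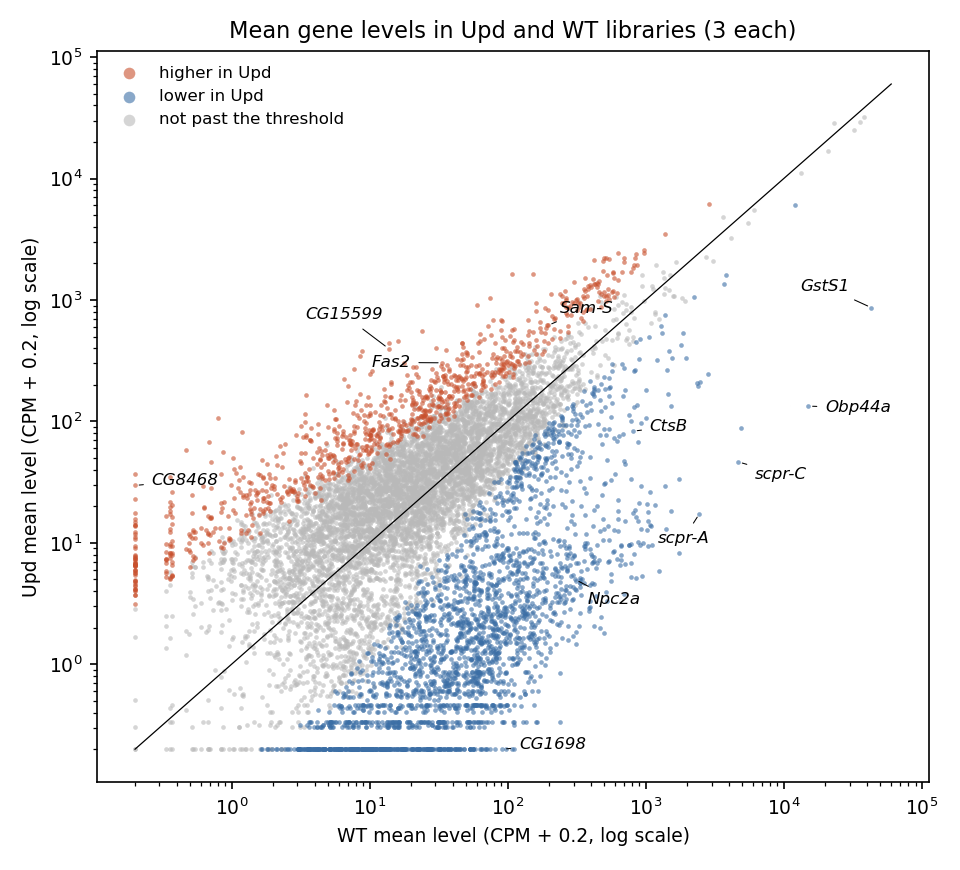
Mean level of each tested gene in Upd (vertical axis) against WT (horizontal axis), both in CPM plus 0.2 on log scales, with 1 point per gene and the line of equal levels. Genes lower in Upd reach far below the line, with GstS1 and Obp44a among the most abundant WT transcripts, and 362 of them lie at 0 CPM in Upd.

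The gene classes had unequal shares of calls. Genes listed in the count table under a CG number made up 243 of the 927 genes that rose (26.2%) and 1598 of the 2546 that fell (62.8%). Some have been named since, and 177 of the 243 and 1421 of the 1598 still stand under a CG number in the annotation. Of 4605 CG-numbered genes tested, 5.28% were higher and 34.7% lower in Upd, against 12.99% higher and 14.9% lower among 4872 named genes. CG-numbered genes as a class took 15.2% of all counts in Upd and 25.9% in WT. Of 543 RNA genes, 8.29% were higher and 39.96% lower. Gene structure went with the direction: 48.6% of 1319 protein-coding genes with 1 exon block fell and 3.79% rose, while 16.97% of 1485 genes with 9 or more exon blocks fell and 14.9% rose. In the same way, 38.6% of the shortest of 4 equal length classes of protein-coding genes (up to 1207 exonic bases) fell and 5.59% rose, against 14% and 17.5% of the longest class (over 3411 bases). WT 2, the library with the most late germline marker RNA, had the highest WT level for 65.96% of the CG-numbered genes that fell and for 47.8% of the named ones, against 59.5% of all genes that fell and 36.6% of all genes tested.

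**Figure D2:**
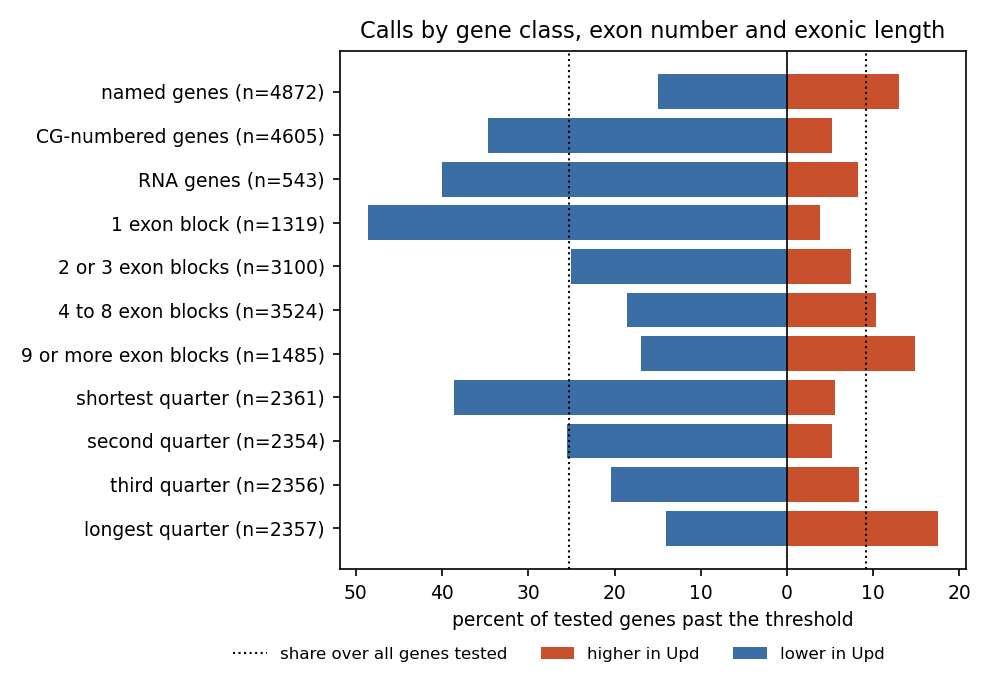
Percent of tested genes past the threshold in each class, higher in Upd to the right and lower in Upd to the left, with dotted lines at the shares over all genes. Single-exon genes were lower in 48.6% of cases, and the longest class of genes was the only length class with a larger share of rises (17.5%) than of falls (14%).

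The largest losses in CPM were of a small set of mostly secreted and detoxifying proteins. The 8 genes with the largest loss in CPM took 0.372% of gene counts in Upd, against 8.29% in WT. GstS1 encodes a glutathione S-transferase of the sigma class (chromosome 2R, 17093246 to 17099501, minus strand, BDGP6.54). It had 1273, 686 and 631 CPM in Upd, against 51975, 34906 and 42524 CPM in WT, and fell by 5.64 ± 0.40 log2 units (± SE, edgeR adjusted p = 1.16e-09). The lowest WT library was far above the highest Upd library. GstD1, another glutathione S-transferase, had 221, 187 and 223 CPM in Upd, against 2693, 2189 and 2575 CPM in WT, a change of -3.56 ± 0.36 log2 units (± SE, edgeR adjusted p = 1.27e-07).

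Obp44a and Obp99a encode odorant-binding proteins, small secreted carriers of hydrophobic ligands that are also made outside sense organs. Obp44a (chromosome 2R, 8134170 to 8135315, minus strand) had 230.5, 97.5 and 72.3 CPM in Upd, against 16151, 14240.1 and 14886 CPM in WT. It fell by 6.82 ± 0.46 log2 units (± SE, edgeR adjusted p = 6.84e-10). Upd 1 was the highest Upd library, and the log2 change without it was -7.47. Other genes share 19.1% of its exonic bases. Obp99a (chromosome 3R, 29671657 to 29672334, plus strand) had 117, 84.9 and 63 CPM in Upd, against 5359.6, 4128 and 5194 CPM in WT, a change of -5.79 ± 0.45 log2 units (± SE, edgeR adjusted p = 3.41e-09). The scpr genes encode secreted proteins of the cysteine-rich CAP family and lie close together on chromosome 3R. scpr-C had 45.1, 57.9 and 35.5 CPM in Upd, against 4170.3, 5449.6 and 4430.3 CPM in WT. scpr-A had 21.2, 18.6 and 11.8 CPM in Upd, against 2047, 2932 and 2376 CPM in WT. Both were past the threshold in every leave-one-out fit (log2 changes -6.66 ± 0.43 and -7.15 ± 0.45, edgeR adjusted p = 3.61e-10 for both). For each, every WT library was above every Upd library. The copies are similar, so how reads divide between them is uncertain. Arc1, a capsid-forming protein related to retroviral Gag, had 86.3, 519.8 and 133 CPM in Upd, against 2066, 4545 and 1801 CPM in WT. Upd 2 was the highest Upd library for Arc1, and the log2 change was -3.51 ± 0.61 with it and -4.67 without it (edgeR adjusted p = 0.000168 with all libraries). Act5C, a cytoplasmic actin, had 1309.7, 1297 and 1469.9 CPM in Upd, against 3948, 3317 and 3874 CPM in WT (log2 change -1.45, edgeR adjusted p = 0.00197).

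Lysosomal proteases and sterol-handling genes were among the further falls. Of 39 tested members of a list of autophagy and lysosome genes, 9 fell (23.1%, against 25.3% of all genes) and 0 rose. All 9 falls held without any 1 library, and the summed level over the list was 1987 to 2170.05 CPM in Upd and 5626 to 6584 CPM in WT. The list's median log2 change was -0.22, against -0.07 over all genes tested. With upper-quartile scaling 3 members rose. Among the genes that fell were 4 cathepsins, the proteases of the lysosome. CtsB (listed under the symbol CtsB1, chromosome X, 13779847 to 13782170, minus strand) had 80.3, 83.8 and 84.5 CPM in Upd, against 886, 727 and 819 CPM in WT, and fell by 3.29 ± 0.42 log2 units (± SE, edgeR adjusted p = 3.53e-06). The cysteine cathepsin CtsK1, listed as 26-29-p, had 61.5, 73.3 and 66.1 CPM in Upd, against 882, 897 and 856 CPM in WT, a change of -3.71 ± 0.50 log2 units (± SE, edgeR adjusted p = 6.43e-06). CtsL1, listed as Cp1, had 363, 344 and 422 CPM in Upd, against 1539, 1605 and 1298 CPM in WT (-1.98 ± 0.29, edgeR adjusted p = 1.93e-05). cathD, an aspartic protease, had 79.1, 69.4 and 83.9 CPM in Upd, against 669.8, 393 and 479.5 CPM in WT (-2.73 ± 0.40, edgeR adjusted p = 2.03e-05). For each of the 4 the highest Upd library was below the lowest WT library. Lamp1, a lysosomal membrane protein, had 93.5, 85.9 and 79.2 CPM in Upd, against 592, 499.7 and 522 CPM in WT (log2 change -2.64, edgeR adjusted p = 5.15e-05). Alpha-mannosidases trim sugar chains in the lysosome. The gene LManII had 7.19, 1.40 and 3.12 CPM in Upd, against 268, 129 and 168 CPM in WT. LManI had 1.20, 0 and 0 CPM in Upd, against 30.8, 20.3 and 20.9 CPM in WT. Of the autophagosome proteins, Atg8b fell too, with 2.0, 0.701 and 0.624 CPM in Upd, against 58.5, 190.2 and 99.2 CPM in WT. Its paralogue Atg8a did not pass, with 231, 177 and 179 CPM in Upd, against 299.7, 236 and 276 CPM in WT (log2 change -0.47, edgeR adjusted p = 0.384). WT 2 was the highest WT library for 3 of the 9 genes that fell.

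Niemann-Pick type C proteins move sterol out of the lysosome. Npc2a (chromosome 2L, 1988290 to 1988940, plus strand) had 5.19, 4.21 and 4.99 CPM in Upd, against 301, 279.7 and 343 CPM in WT, and fell by 5.99 ± 0.45 log2 units (± SE, edgeR adjusted p = 2.51e-09). Its membrane-bound partner gene Npc1a had 184, 143 and 158 CPM in Upd, against 821, 562 and 681 CPM in WT, a change of -2.09 ± 0.38 log2 units (± SE, edgeR adjusted p = 0.000212). Npc2b, a paralogue, had 3.59, 0.701 and 0.624 CPM in Upd, against 149, 92.3 and 106 CPM in WT. Of 11 tested sterol and steroid genes 4 fell (36.4%) and 1 rose (9.09%), against 25.3% and 9.22% of all genes. Of these 3 and 1 held without any 1 library, and WT 2 was the highest WT library for 0 of the 4 that fell. The gene that rose was Cyp18a1, whose product inactivates the moulting hormone ecdysone, with 13.2, 4.91 and 23.1 CPM in Upd, against 0, 0 and 0 CPM in WT. A WT level of 0 allows up to 0.457 CPM over the 3 libraries (3 counts), so the mean in Upd was at least 30.04-fold higher.

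**Figure D3:**
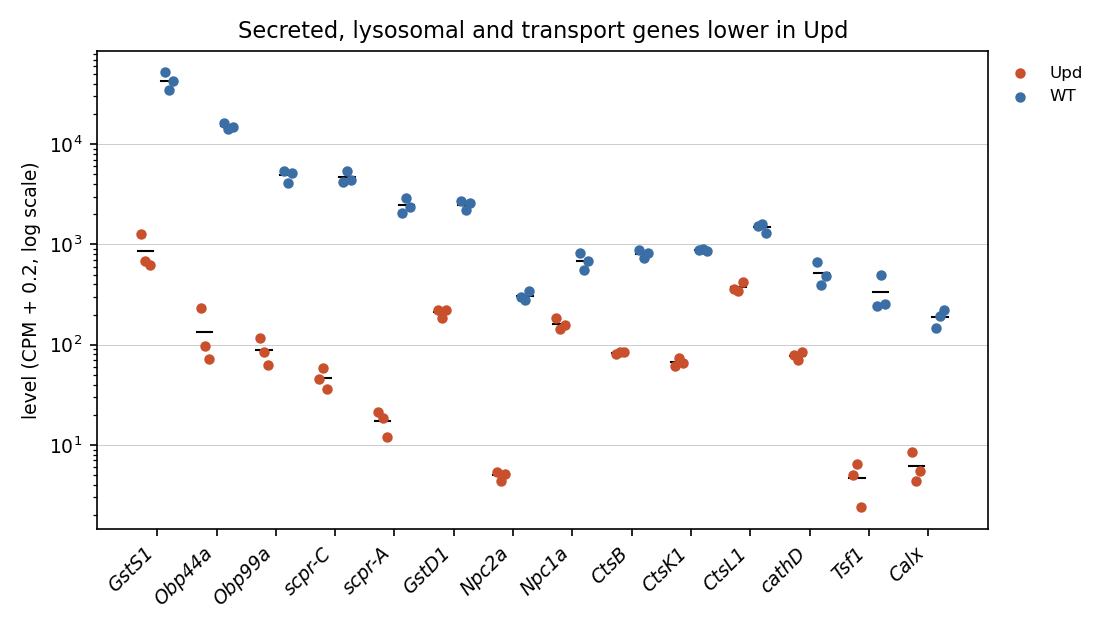
Level of 14 secreted, lysosomal and transport genes in each library, in CPM plus 0.2 on a log scale, with 3 points per group (Upd left, WT right) and a bar at the mean. The groups did not overlap for any gene shown, as for 2486 of the 2546 genes that fell. GstS1 had 1273, 686 and 631 CPM in Upd and 51975, 34906 and 42524 CPM in WT.

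Some chaperones of the endoplasmic reticulum fell. Of 41 tested genes of the secretory pathway 8 fell (19.5%, against 25.3% of all genes) and 0 rose, and 4 of the falls held without any 1 library. The falls numbered 5 without Upd 1, Upd 2, Upd 3 or WT 3, and 4 with upper-quartile scaling. ERp60, a protein disulfide isomerase, had 187, 169 and 187 CPM in Upd, against 747, 624 and 744 CPM in WT (-1.96 ± 0.32, edgeR adjusted p = 5.97e-05). The chaperone BiP, encoded by Hsc70-3, had 311, 321 and 352 CPM in Upd, against 890.01, 875 and 914 CPM in WT (-1.45 ± 0.34, edgeR adjusted p = 0.00201). Trp1 encodes Sec62, which helps proteins into the endoplasmic reticulum, and had 75.5, 74 and 77.6 CPM in Upd, against 274, 177 and 217 CPM in WT, a change of -1.56 ± 0.43 log2 units (± SE, edgeR adjusted p = 0.00717). CaBP1, another disulfide isomerase, had 74.7, 78.6 and 79.8 CPM in Upd, against 262, 259 and 228 CPM in WT, a change of -1.69 ± 0.50 log2 units (± SE, edgeR adjusted p = 0.0116). It lost its call with upper-quartile scaling (edgeR adjusted p = 0.0549).

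Among lists with at least 8 tested genes, glycolysis had the largest share of falls. Of 27 tested genes 19 fell (70.4%, against 25.3% of all genes) and 0 rose. The summed level was 984, 808 and 939.8 CPM in Upd 1 to 3, against 2808, 3005 and 2929.9 CPM in WT 1 to 3. The median log2 change was -2.33. Of the falls 12 held without any 1 library, and 12 were called without Upd 2. Phosphoglucose isomerase, Pgi (chromosome 2R, 8910900 to 8914069, minus strand), turns glucose 6-phosphate into fructose 6-phosphate. It had 43.5, 58.9 and 38 CPM in Upd, against 188, 200.1 and 266 CPM in WT, and fell by 2.22 ± 0.42 log2 units (± SE, edgeR adjusted p = 0.000265). Several of the widest falls belonged to genes related to a glycolytic enzyme by duplication. The hexokinase genes Hex-t1 and Hex-t2, named for their testis expression, had low levels in Upd. Hex-t1 had 0.799, 0 and 0 CPM in Upd, against 45.2, 63.7 and 43.7 CPM in WT. Hex-t2 had 4.79, 0.351 and 0.312 CPM in Upd, against 110.4, 195 and 135 CPM in WT, with Upd 1 above the other Upd libraries. The phosphoglycerate mutase copy Pglym87 had 3.59, 0.351 and 0 CPM in Upd, against 96.5, 222 and 145 CPM in WT. The aldolase copy Ald2 (listed as CG5432) had 1.60, 0.351 and 0 CPM in Upd, against 56.5, 102 and 66 CPM in WT. The pyruvate kinase relative CG7069 had 9.59, 8.07 and 2.81 CPM in Upd, against 73.9, 120.2 and 151 CPM in WT (-4.07 ± 0.78, edgeR adjusted p = 0.000343).

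For some main enzymes of the pathway the groups lay closer, while others were called lower. Aldolase, Ald1 (listed as Ald), had 147, 109.8 and 148 CPM in Upd, against 347, 384 and 375 CPM in WT, and passed the test (log2 change -1.45, edgeR adjusted p = 0.00986) but not without Upd 2 (edgeR adjusted p = 0.0565). Pyruvate kinase, PyK, had 139, 139 and 129 CPM in Upd, against 285, 154 and 209.9 CPM in WT, a difference short of the threshold (log2 change -0.67, edgeR adjusted p = 0.225). Hex-A, hexokinase A, had 139, 80.7 and 108 CPM in Upd, against 184, 121 and 169.5 CPM in WT (log2 change -0.54, edgeR adjusted p = 0.381). Upd and WT libraries of Hex-A overlapped. Gapdh1, a glyceraldehyde phosphate dehydrogenase, had 91.5, 70.1 and 96.7 CPM in Upd, against 183, 118 and 133 CPM in WT (log2 change -0.75, edgeR adjusted p = 0.207). WT 2 was the highest WT library for 9 of the 19 genes that fell (47.4%, against 59.5% of all genes that fell). It also had the highest late germline marker sum, and the part of such cells was not tested. These main enzymes were picked as examples with their values in view.

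In the citric acid cycle, too, wide falls were found among copies of enzymes. Of 39 tested genes 16 fell (41.0%, against 25.3% of all genes) and 1 rose, 13 and 0 of them without any 1 library. The list had a median of -0.84 and a sum of 2146 to 2235 CPM in Upd and 3555 to 4033 CPM in WT. CG32026, a relative of isocitrate dehydrogenase, had 14, 2.46 and 14.7 CPM in Upd, against 216, 292 and 202 CPM in WT (-4.50 ± 0.65, edgeR adjusted p = 1.59e-05). The fumarase copy Fum3 (listed as CG6140) had 3.20, 2.10 and 1.87 CPM in Upd, against 47.2, 101 and 72.6 CPM in WT (-4.92 ± 1.01, edgeR adjusted p = 0.000636). Neither gene overlapped between groups. The malate dehydrogenase relative CG10749 had 0, 0.351 and 0.312 CPM in Upd, against 40.5, 58.1 and 52.2 CPM in WT. SdhAL, a copy of the succinate dehydrogenase flavoprotein, had 0, 0 and 0.312 CPM in Upd, against 21, 27.5 and 19 CPM in WT. SdhA itself had 87.5, 113 and 108 CPM in Upd, against 112, 77.6 and 159 CPM in WT (log2 change -0.18, edgeR adjusted p = 0.802). The groups overlapped for SdhA. Mdh2, mitochondrial malate dehydrogenase, had 92.7, 102 and 113 CPM in Upd, against 259.7, 98.7 and 138 CPM in WT (log2 change -0.69, edgeR adjusted p = 0.29). Some further genes of the list were called lower. Idh, an isocitrate dehydrogenase, had means of 79.2 CPM in Upd and 288 CPM in WT (-1.86 ± 0.42, edgeR adjusted p = 0.00131), and its call held without any 1 library. The list also holds Idh3a, Idh3b and Idh3g (listed as l(1)G0156, CG6439 and CG5028), and none of these was called. SdhD (log2 change -1.71, edgeR adjusted p = 0.0184) and ScsbetaA, listed as skap (-0.88, edgeR adjusted p = 0.0477), lost their calls in leave-one-out fits. The 1 rise, Ogdh (listed as Nc73EF), lost its call in each leave-one-out fit. WT 2 was the highest WT library for 13 of the 16 genes that fell, against 59.5% of all genes that fell. It was so for 9 of 10 late germline markers that fell, and the part of such cells in these falls was not tested.

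Carriers of the mitochondrial inner membrane move metabolites between mitochondrion and cytosol. Of 35 tested, 12 fell (34.3%, against 25.3% of all genes), 0 rose and 11 of the falls held without any 1 library. CG7514 had 0, 0 and 0 CPM in Upd, against 31.3, 74.8 and 52.2 CPM in WT, a level at least 151-fold lower in Upd. CG9582 had 0.399, 0 and 0 CPM in Upd, against 52.9, 101 and 62.7 CPM in WT. The dicarboxylate carrier gene Dic4 had 0.799, 0 and 0 CPM in Upd, against 13.9, 36.6 and 27.5 CPM in WT. Pyruvate enters mitochondria through a carrier of its own. Its subunit gene Mpc1 had 43.9, 55.8 and 43 CPM in Upd, against 144, 231 and 196 CPM in WT (-2.0 ± 0.48, edgeR adjusted p = 0.00237). The adenine nucleotide translocase sesB had 483, 477 and 435 CPM in Upd, against 743, 425 and 543 CPM in WT, a difference that did not pass (log2 change -0.29, edgeR adjusted p = 0.546). WT 2 was the highest WT library for 11 of the 12 carriers that fell (91.7%, against 59.5% of all genes that fell). The part of late germ cells in these falls was not tested. In the pentose phosphate pathway, 3 of 8 genes fell (37.5%, against 25.3% of all genes). The transketolase relative CG8036 had 103, 94.7 and 78.9 CPM in Upd, against 401, 228 and 230.3 CPM in WT (-1.63 ± 0.39, edgeR adjusted p = 0.00236), and its copy CG5103 had 0.399, 0 and 0 CPM in Upd, against 71.3, 121 and 84.5 CPM in WT.

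Genes for nucleotides and methyl groups had members that rose. Of 27 tested, 5 rose (18.5%) and 3 fell (11.1%), against 9.22% and 25.3% of all genes. Of these 3 and 1 held without any 1 library, and the median log2 change was 0.65. With upper-quartile scaling 8 rose and 1 fell. The rises numbered 3 without Upd 1, Upd 2, Upd 3 or WT 2. The falls numbered 1 without Upd 1, Upd 2, Upd 3 or WT 1. Sam-S, which makes the methyl donor S-adenosylmethionine (chromosome 2L, 106903 to 114432, plus strand), had 675, 572 and 602 CPM in Upd, against 295, 131 and 160.5 CPM in WT, and rose by 1.66 ± 0.39 log2 units (± SE, edgeR adjusted p = 0.00214). Cbs, cystathionine beta-synthase, draws homocysteine out of that cycle, and had 70.7, 65.6 and 69.2 CPM in Upd, against 8.21, 7.56 and 0.950 CPM in WT (3.60 ± 0.85, edgeR adjusted p = 0.00204). CTP synthase, listed as CTPsyn and sharing 18.3% of its exonic bases with other genes, had 81.5, 71.2 and 87.6 CPM in Upd, against 6.67, 1.99 and 8.07 CPM in WT (3.84 ± 1.07, edgeR adjusted p = 0.00709). All 3 Upd libraries were above all 3 WT libraries for each of these. The gene that fell without any 1 library was su(r), dihydropyrimidine dehydrogenase of pyrimidine breakdown, with 0, 0 and 0.312 CPM in Upd, against 24.6, 37.8 and 26.6 CPM in WT. Early germline markers were also higher in Upd, and their part in these rises was not tested.

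Amino acid and polyamine metabolism fell in 12 of 21 tested genes (57.1%, against 25.3% of all genes), with 0 rises. Of the falls 8 held without any 1 library, and the median log2 change was -1.60. Gs2, glutamine synthetase 2, had 1.20, 2.46 and 3.12 CPM in Upd, against 72.4, 135 and 104 CPM in WT (-5.47 ± 0.71, edgeR adjusted p = 3.85e-06). Sms, spermine synthase (listed as CG4300), had 81.9, 78.2 and 68 CPM in Upd, against 343, 246 and 352 CPM in WT (-2.05 ± 0.39, edgeR adjusted p = 0.000329). Got1, a cytosolic aspartate aminotransferase, had 49.5, 46.6 and 41.8 CPM in Upd, against 186, 164 and 142 CPM in WT (-1.84 ± 0.47, edgeR adjusted p = 0.00402). For these 3 genes every Upd library was below every WT library. Tyrosine hydroxylase, ple, makes dopa from tyrosine. It had 2.80, 0.701 and 1.87 CPM in Upd, against 76.5, 127 and 27.1 CPM in WT, with the lowest WT library still above the highest Upd library, and fell by 5.39 ± 1.12 log2 units (± SE, edgeR adjusted p = 0.000679). Ddc, which turns dopa into dopamine, had 1.20, 2.10 and 3.43 CPM in Upd, against 22.1, 29 and 25.6 CPM in WT (-3.46 ± 0.95, edgeR adjusted p = 0.00662).

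Lipid genes were called mostly as falls. Of 20 tested fatty acid synthesis genes 7 fell (35%) and 2 rose, 5 and 0 without any 1 library, and of 21 lipid storage genes 6 fell (28.6%) and 1 rose, 5 and 0 without any 1 library. Over all genes 25.3% fell. Desat1, the fatty acid desaturase (chromosome 3R, 12439600 to 12447616, plus strand), had 179, 189 and 189 CPM in Upd, against 533, 492 and 504 CPM in WT, and fell by 1.46 ± 0.36 log2 units (± SE, edgeR adjusted p = 0.00288). The fatty acid elongase Baldspot had 169, 131 and 149.99 CPM in Upd, against 523, 422 and 459 CPM in WT (-1.64 ± 0.37, edgeR adjusted p = 0.00127). Agpat2 (listed as fu12), an acyltransferase on the way to phosphatidic acid, had 20.4, 14 and 28.1 CPM in Upd, against 209, 178 and 189 CPM in WT (-3.20 ± 0.46, edgeR adjusted p = 1.48e-05). LpR2, a lipophorin receptor for circulating lipid, had 64.3, 39.98 and 44.9 CPM in Upd, against 311, 143 and 126 CPM in WT (-1.96 ± 0.46, edgeR adjusted p = 0.00205). In these 4 genes the groups did not overlap. The fatty acid synthase gene FASN1 had 879.5, 745 and 783 CPM in Upd, against 1674, 795 and 1016 CPM in WT, a difference that did not pass (log2 change -0.53, edgeR adjusted p = 0.265). The triglyceride lipase brummer, bmm, had 367, 219 and 250.4 CPM in Upd, against 261, 175 and 257 CPM in WT (log2 change 0.27, edgeR adjusted p = 0.678). The regulators SREBP and SCAP, which sense sterols and lipids, were the 2 synthesis genes that rose, and both lost the call in several leave-one-out fits, among them those without WT 2 (edgeR adjusted p = 0.0551 and 0.153). SREBP had 302, 227 and 232 CPM in Upd, against 99.6, 77.6 and 54.6 CPM in WT. SCAP had 93.5, 82.8 and 106 CPM in Upd, against 23.6, 5.57 and 23.7 CPM in WT. Of 18 fatty acid oxidation genes 1 fell and 0 rose, and that call, yip2, was lost without Upd 2, Upd 3, WT 1 or WT 3.

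Cytochrome P450 and glycosyltransferase enzymes act on hormones and foreign compounds. Of 51 tested genes of both families 12 fell (23.5%, against 25.3% of all genes) and 2 rose. The glycosyltransferase Ugt36D1, listed as CG17323, had 10.8, 7.01 and 4.37 CPM in Upd, against 233, 101 and 98.8 CPM in WT (-4.28 ± 0.67, edgeR adjusted p = 3.69e-05). In the redox list 8 of 25 fell (32.0%) and 1 rose, 6 and 0 without any 1 library. Gclm, the modifier subunit of the enzyme that starts glutathione synthesis, had 35.5, 35.1 and 32.4 CPM in Upd, against 210.4, 196 and 197 CPM in WT (-2.55 ± 0.52, edgeR adjusted p = 0.000552). The extracellular superoxide dismutase Sod3 had 1.20, 3.86 and 0.624 CPM in Upd, against 259, 237 and 209 CPM in WT. Thioredoxins reduce oxidised proteins. The testis thioredoxin TrxT had 22.4, 40.3 and 13.4 CPM in Upd, against 197, 514 and 388 CPM in WT (-3.85 ± 0.69, edgeR adjusted p = 0.000175). The peroxiredoxin copies Prx2540-1 and Prx2540-2 both fell and lie side by side, so how reads divide between them is uncertain. Prx2540-1 had 2.80, 1.75 and 1.25 CPM in Upd, against 89.3, 119.8 and 75 CPM in WT. Prx2540-2 had 12.4, 3.51 and 4.68 CPM in Upd, against 485, 611 and 523 CPM in WT. The main cytosolic peroxiredoxin, Jafrac1, had 260.4, 229 and 244 CPM in Upd, against 215, 129 and 211 CPM in WT (log2 change 0.40, edgeR adjusted p = 0.426). Pgm2a (listed as Pmm45A) was the only fall among 16 genes of sugar storage and hexosamine, with 65.9, 54.7 and 75.8 CPM in Upd, against 547, 419 and 474 CPM in WT (-2.87 ± 0.39, edgeR adjusted p = 6.23e-06).

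**Figure D4:**
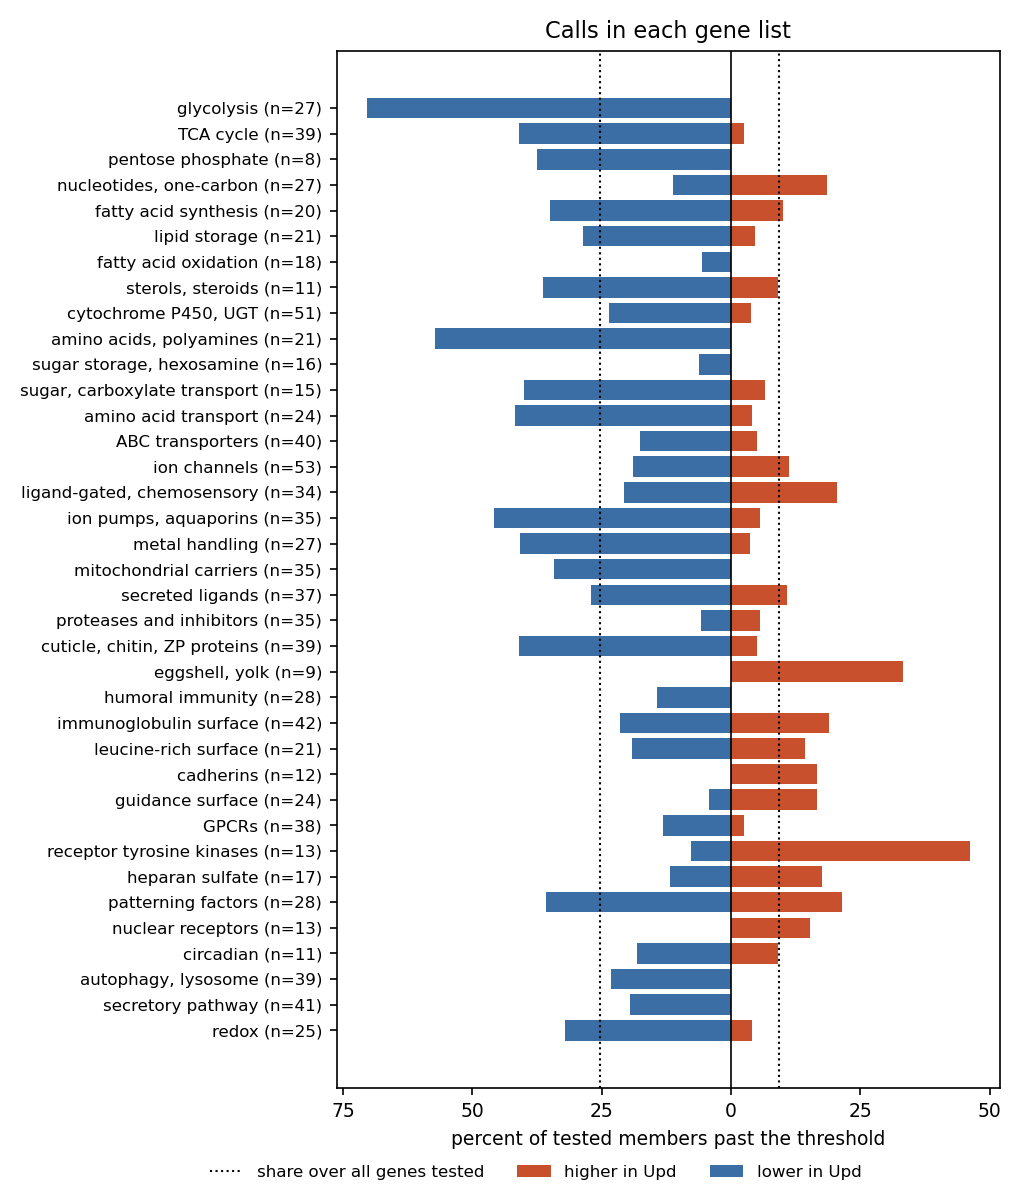
Percent of tested members past the threshold in each gene list with at least 8 tested members, higher in Upd to the right and lower in Upd to the left, with dotted lines at the shares over all genes (9.22% higher and 25.3% lower). Glycolysis (19 of 27) and amino acid and polyamine metabolism (12 of 21) had the largest shares of falls, and receptor tyrosine kinases (6 of 13) the largest share of rises.

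Transporters at the cell surface bring in amino acids and sugars. Of 24 tested amino acid transporters 10 fell (41.7%, against 25.3% of all genes) and 1 rose, 7 and 0 without any 1 library. CG1698, placed in this list as a solute carrier (chromosome 2R, 9793326 to 9798006, plus strand), had 0, 0 and 0 CPM in Upd, against 75.5, 136 and 62.7 CPM in WT. No Upd library held a read of it, which allows up to 0.350 CPM over the group and puts it at least 261-fold lower. The cationic amino acid transporter slimfast, slif, had 2.0, 7.37 and 5.61 CPM in Upd, against 63.1, 65.3 and 53.2 CPM in WT (-3.58 ± 0.74, edgeR adjusted p = 0.000629). The groups did not overlap for slif. blot, a neurotransmitter transporter relative, had 52.3, 45.6 and 29 CPM in Upd, against 194, 169.9 and 173 CPM in WT (-2.08 ± 0.53, edgeR adjusted p = 0.00351). The amino acid transporter pathetic, path, did not pass (195, 216 and 227 CPM in Upd, against 245, 105 and 140.1 CPM in WT, log2 change 0.38, edgeR adjusted p = 0.567). Of 15 transporters for sugars and carboxylates 6 fell (40.0%) and 1 rose (6.67%, against 9.22% of all genes), 2 and 1 without any 1 library. Without Upd 2 the falls numbered 3. Glut1, a glucose transporter, had 5.59, 2.81 and 0.312 CPM in Upd, against 315, 121 and 174 CPM in WT. sut4, a sugar transporter relative, had 8.39, 0 and 2.49 CPM in Upd, against 229.9, 355 and 245 CPM in WT. Upd 1 was the highest Upd library for both. The gene that rose was CG8468, of the monocarboxylate transporter family (chromosome 2R, 14219898 to 14230620, plus strand), with 27.2, 38.6 and 22.8 CPM in Upd, against 0, 0 and 0 CPM in WT, at least 64.6-fold higher in Upd.

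Ion pumps, carbonic anhydrases and water channels formed a list of 35 tested genes. Of these 16 fell (45.7%, against 25.3% of all genes) and 2 rose, 15 and 0 without any 1 library. Calx, the sodium-calcium exchanger (chromosome 3R, 20978183 to 21015613, plus strand), had 8.39, 4.21 and 5.30 CPM in Upd, against 147, 195 and 221 CPM in WT, and fell by 4.97 ± 0.52 log2 units (± SE, edgeR adjusted p = 2e-07). The cation-chloride cotransporter Ncc69 had 5.59, 7.37 and 2.81 CPM in Upd, against 74.9, 69.2 and 74.5 CPM in WT (-3.79 ± 0.61, edgeR adjusted p = 5.13e-05). Carbonic anhydrases interconvert carbon dioxide and bicarbonate, and CAH13 (listed as CG12309) had 1.20, 1.05 and 1.56 CPM in Upd, against 175, 327 and 172 CPM in WT (-7.40 ± 1.05, edgeR adjusted p = 1.16e-05). Both genes had all Upd libraries below all WT libraries. CAH4, listed as CG10899, had 2.0, 0.701 and 3.12 CPM in Upd, against 18.5, 53.7 and 44.2 CPM in WT. CAH15, listed as CG9235, had 0, 0 and 0 CPM in Upd, against 30.8, 37.8 and 46.5 CPM in WT. Water passes the membrane through aquaporins. The aquaporin Drip had 0.399, 2.81 and 0.312 CPM in Upd, against 32.3, 80.4 and 35.6 CPM in WT. The catalytic subunit of the sodium pump, Atpalpha, had 798, 657 and 847 CPM in Upd, against 1485, 902 and 1116 CPM in WT, a difference that did not pass (log2 change -0.61, edgeR adjusted p = 0.162), while its beta subunit nrv2 fell by 3.12 ± 0.38 log2 units (± SE, edgeR adjusted p = 1.53e-06).

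Metal handling fell in 11 of 27 tested genes (40.7%, against 25.3% of all genes), and 10 of these falls held without any 1 library. The only rise, of the zinc transporter ZnT77C, was lost in each leave-one-out fit. Tsf1, a secreted transferrin that carries iron (chromosome X, 18387084 to 18390344, plus strand), had 4.79, 6.31 and 2.18 CPM in Upd, against 245, 499 and 256 CPM in WT. Upd libraries held at most 6.31 CPM, and the gene fell by 6.23 ± 0.61 log2 units (± SE, edgeR adjusted p = 6.24e-08). Both subunits of secreted ferritin, which stores iron, fell. Fer1HCH had 143, 153 and 192 CPM in Upd, against 523, 625 and 486 CPM in WT (-1.74 ± 0.37, edgeR adjusted p = 0.000773). Fer2LCH had 298, 227 and 271 CPM in Upd, against 767, 941 and 796 CPM in WT (-1.65 ± 0.45, edgeR adjusted p = 0.006). Other members handle zinc and copper. ZnT63C, a zinc exporter, had 59.9, 39.6 and 49 CPM in Upd, against 382, 222 and 259 CPM in WT (-2.54 ± 0.45, edgeR adjusted p = 0.000143). ATP7, a copper pump, had 10.4, 18.9 and 11.5 CPM in Upd, against 112, 122 and 98.8 CPM in WT (-3.02 ± 0.64, edgeR adjusted p = 0.000784). The metallothionein MtnA had 24.8, 74 and 63.3 CPM in Upd, against 242, 467 and 158 CPM in WT (-2.42 ± 0.53, edgeR adjusted p = 0.00116). The zinc importer foi had 166, 194 and 219 CPM in Upd, against 95.5, 135 and 76.9 CPM in WT, short of the threshold (edgeR adjusted p = 0.377). WT 2 was the highest WT library for 7 of the 11 genes that fell, near its share of 59.5% over all genes that fell.

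Of 40 tested ABC transporters, which export or import many compounds at the cost of ATP, 7 fell (17.5%) and 2 rose (5.0%), against 25.3% and 9.22% of all genes. Of these 5 and 1 held without any 1 library. Atet, a member of the ABCG group, had 7.19, 2.46 and 9.04 CPM in Upd, against 120.1, 141 and 101 CPM in WT (-4.26 ± 0.53, edgeR adjusted p = 2.19e-06). Cftr, listed as CG5789, had 61.9, 51.6 and 70.5 CPM in Upd, against 348, 117 and 339 CPM in WT (-2.13 ± 0.44, edgeR adjusted p = 0.000723). The white gene, w, which imports pigment precursors, had 205, 229 and 207 CPM in Upd, against 26.2, 29.4 and 52.2 CPM in WT, a change of 2.57 ± 0.72 log2 units (± SE, edgeR adjusted p = 0.00754). Transgenes are often marked with a functional w gene, so reads of the resident gene and of a marker cannot be told apart. Among 53 ion channels 6 rose (11.3%) and 10 fell (18.9%), 0 and 5 of them without any 1 library, and the falls numbered 6 without Upd 3 or WT 2. The rises numbered 1 without WT 3 and 3 without Upd 1 or WT 1. The TRP channel water witch, wtrw, had 18, 6.31 and 13.1 CPM in Upd, against 86.2, 57.7 and 77.4 CPM in WT (-2.56 ± 0.62, edgeR adjusted p = 0.00247). Among 34 tested ligand-gated channels, chemosensory receptors and odorant-binding proteins 7 rose and 7 fell (20.6% each), 4 each without any 1 library. The rises numbered 4 without Upd 1, WT 1 or WT 2, and the falls 4 without Upd 3. Gr21a, part of the carbon dioxide receptor of the antenna, had 5.59, 5.26 and 5.61 CPM in Upd, against 0, 0 and 0 CPM in WT, a low level in every Upd library.

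Cell-surface proteins of the immunoglobulin family were called in both directions. Of 42 tested, 8 rose (19.0%) and 9 fell (21.4%), against 9.22% and 25.3% of all genes. Of these 7 each held without any 1 library, and the median log2 change was 0.76. Fas2, a homophilic adhesion protein of nerves and epithelia (chromosome X, 4132887 to 4206093, minus strand), had 312, 262 and 337 CPM in Upd, against 32.3, 29.4 and 38.5 CPM in WT, and rose by 3.18 ± 0.69 log2 units (± SE, edgeR adjusted p = 0.00104). The adhesion protein echinoid, ed, had 386, 221 and 263 CPM in Upd, against 60.6, 48.5 and 52.2 CPM in WT (2.43 ± 0.56, edgeR adjusted p = 0.00159). The Slit receptor robo2, with 42.9% of its exonic bases shared with other genes, had 22.4, 13 and 34 CPM in Upd, against 2.05, 1.99 and 0.475 CPM in WT (3.89 ± 1.09, edgeR adjusted p = 0.00764). For these 3 every Upd library was above every WT library. The nephrin-like protein roughest, rst, had 61.1, 30.2 and 30.6 CPM in Upd, against 2.05, 0 and 0.475 CPM in WT. The gene tutl (turtle), for a protein of dendrite and axon patterning, had 31.6, 20.3 and 10.9 CPM in Upd, against 1.54, 0.398 and 0 CPM in WT. Neuroglian, Nrg, had 241, 241 and 265 CPM in Upd, against 175, 137 and 144 CPM in WT, and the difference did not pass (log2 change 0.71, edgeR adjusted p = 0.163). The falls included 3 members of the DIP family and 3 of the Dpr family, which pair with each other on neurons. DIP-eta had 0, 0 and 0 CPM in Upd, against 17.5, 44.6 and 32.3 CPM in WT, at least 89.7-fold lower in Upd. side-II, of the sidestep family (listed as CG42313), had 0, 0 and 0 CPM in Upd, against 23.6, 14.7 and 44.2 CPM in WT, at least 78.5-fold lower in Upd. Neither had a read in Upd. DIP-theta had 2.40, 0 and 1.25 CPM in Upd, against 60.6, 84.7 and 82.6 CPM in WT. dpr17 had 2.0, 1.75 and 0 CPM in Upd, against 104, 173 and 113 CPM in WT.

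Leucine-rich repeat proteins gave 3 rises (14.3%) and 4 falls (19.0%) among 21 tested, against 9.22% and 25.3% of all genes. The 3 rises held without any 1 library and numbered 5 with upper-quartile scaling, and the falls were 2, 1 and 2 without Upd 1, Upd 2 and Upd 3. lbk (lambik) had 200.1, 141 and 199 CPM in Upd, against 24.6, 17.1 and 23.3 CPM in WT (3.05 ± 0.71, edgeR adjusted p = 0.00177). kek1, which inhibits the EGF receptor, had 204, 174 and 161 CPM in Upd, against 37.5, 29.8 and 23.3 CPM in WT (2.57 ± 0.73, edgeR adjusted p = 0.00832). Lrch, a cytoplasmic protein that binds the cell cortex, had 439, 391 and 319 CPM in Upd, against 82.6, 117 and 148 CPM in WT (1.72 ± 0.46, edgeR adjusted p = 0.00499). All Upd libraries were above all WT libraries for these 3 genes. The fall that held was Toll-7, a Toll family receptor, with 18.8, 6.31 and 4.37 CPM in Upd, against 157, 192 and 206 CPM in WT. Among 12 cadherins 2 rose (16.7%) and 0 fell, and the giant cadherin fat, ft, had 139, 65.2 and 58.3 CPM in Upd, against 9.24, 0 and 1.42 CPM in WT. Among 24 adhesion and guidance proteins 4 rose (16.7%) and 1 fell (4.17%). The rises numbered 2, 2 and 1 without WT 1, WT 2 and WT 3, and the fall was lost without Upd 2, Upd 3 or WT 2. The rise that held was neurotactin, Nrt (chromosome 3L, 16766072 to 16777465, plus strand), a cholinesterase-like adhesion protein with 328, 227 and 229.8 CPM in Upd, against 14.4, 3.18 and 12.8 CPM in WT (4.69 ± 0.74, edgeR adjusted p = 4.03e-05), and 21.8% of its exonic bases overlap other genes.

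Receptor tyrosine kinases rose in 6 of 13 tested genes of a list that also holds dome, with 1 fall, against 9.22% higher over all genes, and their median log2 change was 2.04. The rises numbered 3 without WT 2 or WT 3, and 2 held without any 1 library. Those 2 had low levels and no read in WT. Ret had 19.97, 4.56 and 22.1 CPM in Upd, against 0, 0 and 0 CPM in WT. Nrk had 8.79, 11.2 and 7.80 CPM in Upd, against 0, 0 and 0 CPM in WT. InR, the insulin receptor, had 874, 607 and 637 CPM in Upd, against 246, 169 and 245 CPM in WT (log2 change 1.68, edgeR adjusted p = 0.0191), and lost its call without Upd 1 or WT 2 (edgeR adjusted p = 0.0605 and 0.0846). Egfr had 132, 128 and 117 CPM in Upd, against 23.6, 15.9 and 22.8 CPM in WT (log2 change 2.59, edgeR adjusted p = 0.0156), and lost its call without WT 2 or WT 3 (edgeR adjusted p = 0.0715 and 0.0521). Egfr and InR did not overlap between groups. Alk had 29.6, 29.5 and 29.6 CPM in Upd, against 0, 2.39 and 0 CPM in WT, and its call was lost without WT 1 or WT 3. The PDGF and VEGF receptor Pvr did not pass (139, 111 and 128 CPM in Upd, against 209.9, 152 and 129 CPM in WT, log2 change -0.38, edgeR adjusted p = 0.618). Tie, the gene that fell, had 1.20, 2.46 and 0.312 CPM in Upd, against 66.2, 80.8 and 39.4 CPM in WT.

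G protein-coupled receptors had 5 falls (13.2%) and 1 rise (2.63%) among 38 tested, against 25.3% and 9.22% of all genes. Of these 3 and 1 held without any 1 library. mthl3 and mthl5 belong to the methuselah-like family and moved in opposite directions. mthl3 had 92.7, 71.2 and 84.8 CPM in Upd, against 9.75, 2.39 and 6.65 CPM in WT (3.72 ± 0.94, edgeR adjusted p = 0.00361). mthl5 had 7.19, 9.12 and 9.98 CPM in Upd, against 82.1, 62.9 and 35.6 CPM in WT (-2.77 ± 0.64, edgeR adjusted p = 0.00178). Neither gene overlapped between groups. The dopamine receptor Dop2R had 0.399, 0.351 and 0 CPM in Upd, against 28.7, 26.3 and 20.9 CPM in WT. The neuropeptide F receptor NPFR had 0, 0 and 0 CPM in Upd, against 7.70, 10.3 and 1.42 CPM in WT.

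**Figure D5:**
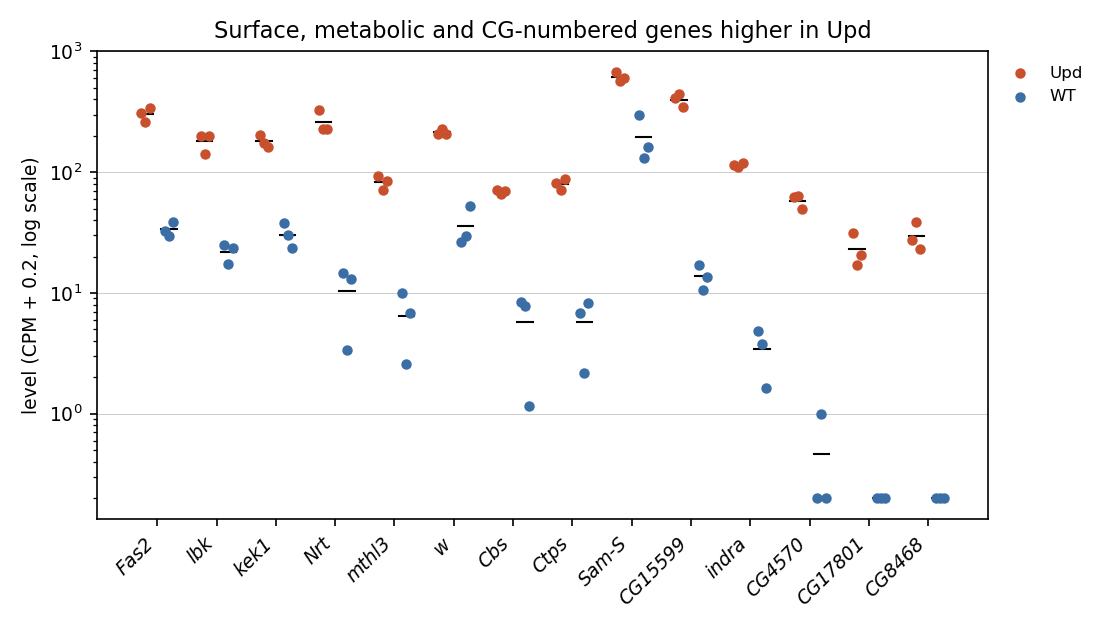
Level of 14 surface, metabolic and CG-numbered genes in each library, in CPM plus 0.2 on a log scale, with 3 points per group (Upd left, WT right) and a bar at the mean. All Upd libraries lie above all WT libraries for every gene shown, as for all 927 genes that rose. Points at 0.2 are libraries without a count.

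Of 37 tested genes for secreted signals 4 rose (10.8%) and 10 fell (27.0%), close to the 9.22% and 25.3% over all genes, and 2 and 7 of them held without any 1 library. The EGF receptor ligand spitz, spi, had 292, 189 and 227 CPM in Upd, against 53.4, 25.9 and 52.7 CPM in WT (log2 change 2.42, edgeR adjusted p = 0.00961), and lost its call without WT 2 (edgeR adjusted p = 0.0574). Wnt proteins are lipid-bearing signals. Wnt4 had a mean of 346 CPM in Upd, against 8.32 CPM in WT (5.38 ± 0.92, edgeR adjusted p = 9.58e-05). Wnt6 had 51.9, 83.8 and 122 CPM in Upd, against 4.11, 5.57 and 6.17 CPM in WT (4.01 ± 1.07, edgeR adjusted p = 0.00595). Wnt2 had 10.4, 3.16 and 2.81 CPM in Upd, against 87.8, 69.6 and 61.2 CPM in WT, a fall (edgeR adjusted p = 0.00334). The ligand gene hh had a mean of 1.17 CPM in Upd, against 41.7 CPM in WT (-5.09 ± 0.90, edgeR adjusted p = 0.000147). The Toll ligand spätzle, spz, had 17.2, 19.6 and 22.1 CPM in Upd, against 169, 263 and 120.1 CPM in WT (-3.22 ± 0.66, edgeR adjusted p = 0.000593), and its relative spz5 had 0.399, 0 and 0.312 CPM in Upd, against 8.21, 24.7 and 14.7 CPM in WT. Every Upd library was below every WT library for spz and spz5. Pvf1, a ligand of Pvr, had 38.7, 50.9 and 33.1 CPM in Upd, against 169, 107 and 138 CPM in WT (-1.76 ± 0.42, edgeR adjusted p = 0.00207). The insulin-like peptide Ilp6 had 41.1, 19.6 and 36.8 CPM in Upd, against 177, 92.7 and 77.4 CPM in WT (log2 change -1.83, edgeR adjusted p = 0.0112), a call lost without Upd 2 or WT 1.

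Heparan sulfate chains on the cell surface hold several of these ligands. Of 17 tested genes of their synthesis and of proteins that act on them 3 rose (17.6%) and 2 fell (11.8%). The shares over all genes were 9.22% and 25.3%, and 2 calls each held without any 1 library. magu, a secreted SMOC-like protein that spreads BMP signals (chromosome 2R, 10052541 to 10063712, plus strand), had 522, 479 and 668 CPM in Upd, against 25.2, 22.7 and 23.7 CPM in WT, and rose by 4.54 ± 0.65 log2 units (± SE, edgeR adjusted p = 1.39e-05), with 18.8% of its exonic bases shared with other genes. Notum, which removes the lipid from Wnt proteins, had 23.6, 33 and 31.2 CPM in Upd, against 3.08, 0 and 2.37 CPM in WT. Sulf1, which removes sulfate from the chains, had 43.5, 33.3 and 48.3 CPM in Upd, against 239.7, 108 and 175 CPM in WT (-2.06 ± 0.57, edgeR adjusted p = 0.00675). The proteoglycan Cow had 2.40, 3.86 and 0.624 CPM in Upd, against 20.02, 31.8 and 29 CPM in WT.

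Cuticle, chitin and zona pellucida domain genes fell in 16 of 39 tested (41.0%, against 25.3% of all genes), with 2 rises. Of these 10 and 0 held without any 1 library, and the median log2 change was -2.82. The chitinase gene Cht12 had 3.20, 4.21 and 7.48 CPM in Upd, against 104, 226 and 183 CPM in WT (-5.08 ± 0.76, edgeR adjusted p = 2.39e-05). serp, a chitin deacetylase, had 3.59, 3.51 and 2.81 CPM in Upd, against 49.3, 44.6 and 51.8 CPM in WT (-3.86 ± 0.81, edgeR adjusted p = 0.000714). The cuticle protein gene Cpr97Eb had 0.799, 0 and 0 CPM in Upd, against 70.3, 117 and 111 CPM in WT. Cpr92A, another, had 0, 0 and 0 CPM in Upd, against 12.8, 68.4 and 43.2 CPM in WT, at least 118-fold lower in Upd. WT 2 was the highest WT library for 9 of the 16, near its share of 59.5% over all genes that fell. Of 9 tested eggshell and yolk genes 3 rose (33.3%, against 9.22% of all genes) and 0 fell, with low levels of all 3. The yolk protein receptor yl had 15.6, 5.96 and 4.99 CPM in Upd, against 0, 0 and 0 CPM in WT. The eggshell gene dec-1 had 22.8, 8.77 and 18.1 CPM in Upd, against 0, 0.398 and 0 CPM in WT. fs(1)M3 had 12, 23.5 and 12.5 CPM in Upd, against 1.54, 0 and 0 CPM in WT. The call of fs(1)M3 was lost without Upd 2, WT 2 or WT 3. Early germline markers were higher in the same libraries, and their part in these rises was not tested.

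Humoral immunity and proteolysis outside the cell had few calls. Of 28 tested immune genes 4 fell (14.3%, against 25.3% of all genes) and 0 rose, with 2 and 1 falls without Upd 2 and Upd 3. The gene that held was NimA, of the nimrod family of phagocytic receptors, with 3.59, 1.75 and 0 CPM in Upd, against 494, 446 and 463 CPM in WT. Of 35 tested proteases and inhibitors 2 rose and 2 fell (5.71% each, against 9.22% and 25.3% of all genes), and both falls held. They were Ance, a homologue of angiotensin converting enzyme, and the serpin Spn43Aa. Ance had 1.20, 0.351 and 0.312 CPM in Upd, against 30.3, 29.4 and 48.9 CPM in WT. Spn43Aa had 3.99, 0 and 0.312 CPM in Upd, against 202, 79.97 and 226 CPM in WT. Of 6 tested juvenile hormone genes 2 fell (33.3%, against 25.3% of all genes). Jheh2, an epoxide hydrolase that degrades the hormone, had 61.9, 73.7 and 59.6 CPM in Upd, against 351, 157 and 322 CPM in WT (-2.09 ± 0.41, edgeR adjusted p = 0.000449), but 91.6% of its exonic bases overlap another gene, so its reads are uncertain. Jheh3 beside it had 1.20, 0.701 and 3.74 CPM in Upd, against 135, 105 and 62.7 CPM in WT, with 49.5% of its exonic bases shared.

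Among genes listed under a CG number, the 8 widest rises started with CG8468 (above). CG17801 had 31.2, 16.8 and 20.3 CPM in Upd, against 0, 0 and 0 CPM in WT (chromosome 3R, 17805679 to 17807085, minus strand). Both had no count in WT, and CG17801 was at least 49.8-fold higher in Upd. CG4570 had 61.9, 62.8 and 49.6 CPM in Upd, against 0, 0.796 and 0 CPM in WT. Hasp (listed as CG10186) had 26.4, 44.2 and 33.4 CPM in Upd, against 0, 0 and 0.475 CPM in WT. CG33288 had 20.4, 24.6 and 19 CPM in Upd, against 0, 0 and 0.475 CPM in WT. In these 3 a WT library with any read held fewer than 1 CPM. CG1674 on chromosome 4 had 44.7, 14.4 and 28.4 CPM in Upd, against 0, 0.796 and 0.475 CPM in WT. The last 2 had more counts in WT. The gene indra, listed as CG2199 (chromosome 3L, 1339460 to 1342403, minus strand), had 114, 111 and 119.7 CPM in Upd, against 4.62, 3.58 and 1.42 CPM in WT, and rose by 5.14 ± 1.01 log2 units (± SE, edgeR adjusted p = 0.000426). CG15599 (chromosome X, 15684947 to 15688857, minus strand) had 408, 442 and 344 CPM in Upd, against 16.9, 10.3 and 13.3 CPM in WT, and rose by 4.88 ± 0.78 log2 units (± SE, edgeR adjusted p = 4.64e-05). Another gene listed under a CG number, aqz (CG9821), was among the 8 largest gains in CPM, with 2924, 1764 and 1925 CPM in Upd, against 632, 372 and 483 CPM in WT (2.15 ± 0.36, edgeR adjusted p = 6.73e-05). The large gains outside the ribosome also held spen, a transcriptional corepressor, with 2509.96, 2146 and 2009 CPM in Upd, against 623, 416 and 511 CPM in WT (2.10 ± 0.38, edgeR adjusted p = 0.000172). Hrb27C, an RNA-binding protein, had 2762, 2254 and 2233 CPM in Upd, against 809, 487 and 598 CPM in WT (1.94 ± 0.37, edgeR adjusted p = 0.000307). Ef1alpha48D, a translation elongation factor and the largest gain in CPM among protein-coding genes, had 6377, 5857 and 6368 CPM in Upd, against 3537, 2439.7 and 2630.3 CPM in WT (1.11 ± 0.29, edgeR adjusted p = 0.00397). The groups did not overlap for any of these 4.

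The 8 widest falls among CG-numbered genes had 0 counts in Upd, apart from CG5139. CG5139 (chromosome 2L, 1198465 to 1199266, minus strand) had 0.399, 0 and 0 CPM in Upd, against 196, 302 and 222 CPM in WT, with 1 read in the 3 Upd libraries and 1608 reads in WT. CG10919 had 0, 0 and 0 CPM in Upd, against 49.3, 169 and 117 CPM in WT, at least 318-fold lower in Upd. CG42383 had 0, 0 and 0 CPM in Upd, against 75.5, 146 and 97.8 CPM in WT, at least 304-fold lower in Upd. For both genes WT 2 was the highest WT library and WT 1 the lowest. WT 2 was the highest WT library for 65.96% of all CG-numbered genes that fell. The part of late germ cells in these falls was not tested. CG15605, CG4714, CG11404 and CG14071 had 0 counts in Upd as well. Their WT levels were 70.8, 95.5 and 75 CPM for CG15605, 54.9, 104 and 64.1 CPM for CG4714, 31.8, 96.3 and 82.1 CPM for CG11404 and 52.4, 84.3 and 71.7 CPM for CG14071, highest in WT 2 in every case. CG1698, the transporter described above, completed the 8.

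Named protein-coding genes in none of the lists gave a further set of wide changes. SP1173 (chromosome 3L, 6689327 to 6703521, minus strand) had 212, 149 and 133 CPM in Upd, against 4.62, 5.17 and 0 CPM in WT, and rose by 5.62 ± 1.09 log2 units (± SE, edgeR adjusted p = 0.000379). Irbp, the Ku70 subunit of DNA end joining, had 30.4, 45.9 and 34 CPM in Upd, against 2.05, 1.99 and 0 CPM in WT (4.71 ± 1.16, edgeR adjusted p = 0.00294). Among the falls, ms(2)35Ci, a gene named for male sterility, had 0, 0 and 0 CPM in Upd, against 27.7, 35.8 and 39.9 CPM in WT. Sprn had 0.399, 0 and 0 CPM in Upd, against 68.8, 148 and 170.4 CPM in WT. The protein phosphatase PpN58A had 0, 0 and 0 CPM in Upd, against 18, 42.6 and 38 CPM in WT. The lowest WT library held at least 17.96 CPM of each, while the 3 Upd libraries together held 0 reads of ms(2)35Ci and PpN58A and 1 of Sprn.

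Of 543 tested noncoding RNA genes 217 fell (39.96%) and 45 rose (8.29%), against 25.3% and 9.22% of all genes. Of those that fell, 109 had no count in Upd. CR43334 (chromosome 3L, 628435 to 643900, plus strand), among the 5 widest rises, had 248, 119.6 and 197 CPM in Upd, against 39, 16.3 and 27.5 CPM in WT (2.77 ± 0.76, edgeR adjusted p = 0.00644). Uhg4, a host gene of small nucleolar RNAs, had 16.4, 26.3 and 26.5 CPM in Upd, against 1.54, 0.796 and 0.950 CPM in WT, and 26.9% of its exonic bases overlap other genes. CR45523 had 28.4, 22.8 and 26.5 CPM in Upd, against 0.513, 0 and 0 CPM in WT. All Upd libraries were above all WT libraries for these 3 RNA genes, as the rule for naming RNA genes required. Of the falls, CR43263 had 0, 0 and 0 CPM in Upd, against 28.7, 86.3 and 44.2 CPM in WT. CR44279 had 0, 0 and 0 CPM in Upd, against 34.9, 42.2 and 38.5 CPM in WT. CR43627 had 0, 0 and 0 CPM in Upd, against 32.8, 43.8 and 26.1 CPM in WT. Every WT library held reads of these 3 genes, and no Upd library did. The antisense gene CR43160 had 0, 0 and 0 CPM in Upd, against 34.9, 43 and 17.1 CPM in WT. Without a stated strand setting its reads and those of the gene across from it cannot be told apart.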

How the data were processed

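Poly(A) RNA of sorted GFP-positive testis cells was sequenced paired-end with 50 cycles, per the labels. The authors deposited raw counts per gene and library, and the submitters' processing notes name bcl2fastq, STAR, Picard, HTSeq and DESeq2 with the builds dm6 and BDGP6. Versions, annotation release and strand setting were not given in the sources used here, and overlapping or antisense genes are uncertain for that reason. Reads without a gene (no feature 15.1% to 17.0% in Upd and 9.55% to 10.8% in WT; ambiguous 14.6% to 15.3% in Upd and 15.4% to 17.3% in WT) stayed out of library sizes and tests. A second deposited table of normalized values was not used here. Libraries of a group differed by more than sampling noise (chi-square per degree of freedom 5.86 to 27.7), so none was counted as a repeat of another.

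Genes passing filterByExpr (10056) were fitted for all 15 libraries with 1 mean per group (edgeR 4.0.16, TMM, robust glmQLFit and two-sided glmQLFTest, R 4.3.3; common dispersion 0.427), and p-values received the Benjamini-Hochberg correction across every tested gene, with calls made under 0.05. The other 9 libraries enter the filter, the scaling and the estimate of spread, and not the means of Upd and WT. Each of the 3 Upd and 3 WT libraries was left out in turn, and RLE and upper-quartile scaling, other filters, DESeq2 1.42.0, limma-voom (limma 3.58.1), a replicate block, fewer libraries and removal of ribosomal RNA rows were tried. The pipeline was also run on simulated counts with as many rises as falls. The calls here were unequal, so that run does not bear on their balance. Where a group held no count of a gene, its limit was set at 3 counts over that group (0.350 CPM in Upd and 0.457 CPM in WT), which covers counting error only, and no fold is given for a gene with 1 to 3 counts in a group.

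Positions and current names come from the BDGP6.54 annotation: 12903 genes matched by symbol, 4322 by 1 synonym and 183 not at all. Members and the 38 gene lists were chosen with earlier results of these data known, and 5 genes that a family name pattern caught wrongly were taken out. Genes named were the readouts of the transgene, up to 4 called members per list with the smallest p among stable genes, the 8 widest rises and falls of CG-numbered and of other coding genes (5 for RNA genes) with a mean of at least 10 CPM and groups that did not overlap, and the 8 largest gains and losses in CPM. Stable means called in each of the 6 leave-one-out fits with a log2 change within 0.58 of that with all libraries, or 3 or fewer counts in a group. A part of the rule on protein sequence classes could not be applied because no protein table was used here. Some genes that met the rule are not described. Further list members are named to show values beside these and were chosen after their values were seen.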

Additional observations from a re-analysis of the deposited data

Results flagged for a closer look

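Reads that fell in no annotated gene were more frequent in Upd. They made up 17.0%, 15.3% and 15.1% of counted read pairs in Upd 1 to 3, against 10.8%, 9.55% and 10.3% in WT 1 to 3, a mean of 15.78 ± 1.03% in Upd and 10.23 ± 0.646% in WT (SD, n = 3). The groups did not overlap, and a two-sided exact permutation test gave p = 0.1, the smallest value that 3 against 3 libraries allow. This stood out because these reads lie outside the gene counts that every comparison above rests on. Reads that matched more than 1 gene made up 14.94 ± 0.349% in Upd and 16.63 ± 1.04% in WT, with an exact permutation p of 0.1 as well.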

How the results depend on the processing

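The number of genes higher in Upd depended on the fit. It was 927 as reported, 1585 with DESeq2, 1642 with limma-voom, 2310 with only the Upd and WT libraries and 1532 without Chinmo 3, a library of another group with few detected genes. It was 442 to 672 in the fits that left out 1 Upd or WT library. Of the 927 genes, 899 were also called higher by DESeq2, 926 by limma-voom and 925 without Chinmo 3. The number of genes lower in Upd was 2546, with 2001 to 2424 in the leave-one-out fits and 2393 to 3123 in all other fits. Upper-quartile scaling moved the median log2 change of all genes to 0.16, against -0.07 with TMM, and called 1275 genes higher and 2399 lower. Of 1216 recounts of list members, 240 moved by over 1.5 times, mostly small counts. The naming rule itself asked for a call in each leave-one-out fit, so those fits say nothing about the 162 genes it chose. The other 10 settings refit the same counts of genes picked for small p or wide change, so they are no independent support. In 1615 such refits none changed sign, and 1 lost its call, CaBP1 with upper-quartile scaling. Genes filtered out or without an adjusted p in a setting were not counted there. With only the Upd and WT libraries 158 of the 162 were refitted, and 161 with DESeq2. Genes named outside the rule lost calls as stated beside their values. With the replicate block 830 genes were higher and 2393 lower. Same-numbered libraries did not deviate together (correlations -0.055, -0.013 and -0.0046), so the numbers were not taken as pairs. With a common dispersion of 0.427 and 3 libraries a group, missing the threshold does not show that a gene stayed the same.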

Other observations

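Genes for transcription factors of body patterning were called in both directions. Of 28 tested, 6 rose (21.4%) and 10 fell (35.7%), against 9.22% and 25.3% of all genes, 0 and 6 of them without any 1 library, and the rises numbered 0 to 2 in the leave-one-out fits. The rises with the highest levels were abd-A, a Hox gene, with 145, 124 and 182 CPM in Upd and 27.7, 45.8 and 58.4 CPM in WT, and bowl, a zinc-finger gene, with 108, 115.4 and 97 CPM in Upd and 43.6, 7.16 and 15.2 CPM in WT. The call of abd-A was lost in each leave-one-out fit and that of bowl in 5 of the 6. The sine oculis relatives Optix and Six4 fell: Optix had 0.399, 0 and 0 CPM in Upd and 5.65, 25.9 and 17.1 CPM in WT, and Six4 had 0.799, 0.351 and 0 CPM in Upd and 37.5, 21.1 and 9.02 CPM in WT. The caudal homeobox gene cad had 0.399, 0 and 0.312 CPM in Upd and 12.8, 41.4 and 19 CPM in WT, and drm, a zinc-finger gene of gut patterning, had 0.399, 0.701 and 0 CPM in Upd and 26.7, 76.8 and 14.2 CPM in WT. For Optix, cad and drm WT 2 was the highest library. Of 13 tested nuclear receptor genes 2 rose, Eip75B with 379, 335 and 323 CPM in Upd and 158, 110.2 and 109 CPM in WT and ftz-f1 with 85.5, 82.4 and 78.6 CPM in Upd and 11.3, 15.9 and 2.85 CPM in WT, and 29.4% of the exonic bases of ftz-f1 are shared with other genes. Both receptors lost the call without WT 1 or WT 3, as Eip75B did without any other Upd or WT library too. In a list of 11 clock genes, Clk, a transcription factor of the circadian clock, had 0.399, 1.40 and 0.935 CPM in Upd and 59, 41.4 and 63.1 CPM in WT, a fall (edgeR adjusted p = 0.00182), and tim had 2.40, 1.05 and 0.624 CPM in Upd and 12.3, 29.4 and 22.3 CPM in WT. dco, the kinase that phosphorylates the clock protein Period, had 259, 247 and 283 CPM in Upd and 97, 74.4 and 101 CPM in WT, and rose by 1.54 ± 0.42 log2 units (± SE, edgeR adjusted p = 0.00663). The labels used here do not state the hour of dissection.

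The shares of calls per chromosome are given as values. On chromosome 4, 20 of 75 tested genes rose and 6 fell, against 9.22% and 25.3% of all genes, with a median log2 change of 1.09, and its genes took 1.34% of gene counts in Upd and 0.605% in WT. On the Y chromosome 0 of 13 rose and 9 fell, and these genes took 0.0045% of counts in Upd and 0.0218% in WT. Many Y-linked genes are known to be transcribed in primary spermatocytes, and late germline markers fell in the same libraries; their part was not tested. On the X chromosome 10.5% of 1631 genes rose and 19.4% fell.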
